A study of Homo sapiens with 6 samples.

Results

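The genes described are 10 members of the Notch pathway: the receptors NOTCH1, NOTCH2 and NOTCH3, the ligands JAG1, JAG2 and DLL1, and the targets HES1, HES4, HEY1 and NRARP. They were chosen by name, with earlier results of these data known. All 10 were found, each in 1 of the 56303 gene entries of the deposited table. RNA sequencing compared AGS cells in which SRSF2 was targeted by an siRNA, a short RNA that lowers its transcript (siSRSF2, 3 libraries), with AGS cells labelled wild-type (WT, 3 libraries). AGS is an established human gastric adenocarcinoma line, so each library is from the same line, grown in the same medium. SRSF2 is a serine/arginine-rich protein that binds exons and promotes their inclusion during splicing. The labels do not say whether WT cells received a control siRNA or whether each replicate was its own culture, and p-values therefore rest on a spread between libraries that may be technical only. In bulk RNA, fewer cells of a type and less RNA per cell cannot be told apart.

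Notch receptors are cut after a ligand on a neighbouring cell binds them, and the freed intracellular part enters the nucleus, joins the DNA-binding protein RBPJ and switches on target genes. The best-known targets are HES and HEY genes, which encode repressors of the basic helix-loop-helix class, and NRARP, which encodes a feedback inhibitor of the same nuclear complex. In the stomach, Notch signalling is known for keeping epithelial stem and progenitor cells proliferating.

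Total counts ranged from 26610937 to 36651623 in siSRSF2 libraries and from 47518943 to 50021152 in WT libraries. Levels are given as CPM, counts scaled to 1000000 per library after TMM scaling. The limit that a count of 0 allows, 3 counts, was 0.0778 to 0.110 CPM in siSRSF2 libraries and 0.0630 to 0.0657 CPM in WT libraries (counting error only). SRSF2, the siRNA target, had counts of 586, 840 and 861 in siSRSF2 libraries, against 2122, 2118 and 2093 in WT libraries (log2 fold change -0.98, SE 0.064, edgeR adjusted p = 4.39e-13), and 36.7% of its exon bases are shared with MFSD11 on the opposite strand. The 7 epithelial markers summed to between 3693 and 3956 CPM in siSRSF2 libraries and between 4130 and 4547 CPM in WT libraries. Among them the keratin KRT8 had 2776 ± 101 CPM in siSRSF2 cells and 3236 ± 156 CPM in WT cells (SD, n = 3 each), whereas the epithelial cadherin gene CDH1 had counts of 6 to 12 in every library. The claudin genes of this list went the other way, with CLDN7 at 10.3, 10.4 and 9.50 CPM in siSRSF2 libraries, against 1.62, 1.66 and 1.83 CPM in WT libraries, and CLDN4 at 4.99 ± 0.974 CPM in siSRSF2 cells and 1.45 ± 0.335 CPM in WT cells. The ranges of EPCAM, KRT18 and KRT19 overlapped between groups. The 5 endothelial markers summed to between 1.21 and 2.28 CPM in siSRSF2 libraries and between 3.27 and 3.46 CPM in WT libraries, with VWF, KDR and TEK near 0. The 5 leukocyte markers reported summed to between 24.4 and 26.9 CPM in siSRSF2 libraries and between 23.8 and 25.6 CPM in WT libraries, mostly from CD68, while PTPRC had at most 10 counts and CD3E was at 0 in WT. The 5 fibroblast markers summed to between 42.8 and 47.3 CPM in siSRSF2 libraries and between 19.8 and 20.1 CPM in WT libraries, mostly from COL1A1. The part of these markers in the results below was not tested.

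Of the 10 members, 8 could be tested, and each of these 8 had at least 20 counts in every library. In siSRSF2 cells 5 of the 8 rose (JAG2, HES4, NRARP, HEY1 and NOTCH1) and 2 fell (JAG1 and NOTCH2), while HES1 did not pass the test. Of all 23689 genes tested, 30.1% rose and 29% fell, 59.1% in either direction, at an edgeR adjusted p of 0.05. The median log2 fold change was 0.43 over the 8 tested members and 0.02 over all genes tested. Groups did not overlap in CPM for 7 of the 8, against 63.8% of all genes tested. Since the members were chosen with earlier results known, nothing particular to them is read from these shares. NOTCH3 and DLL1 were too low to be tested.

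**Figure D1:**
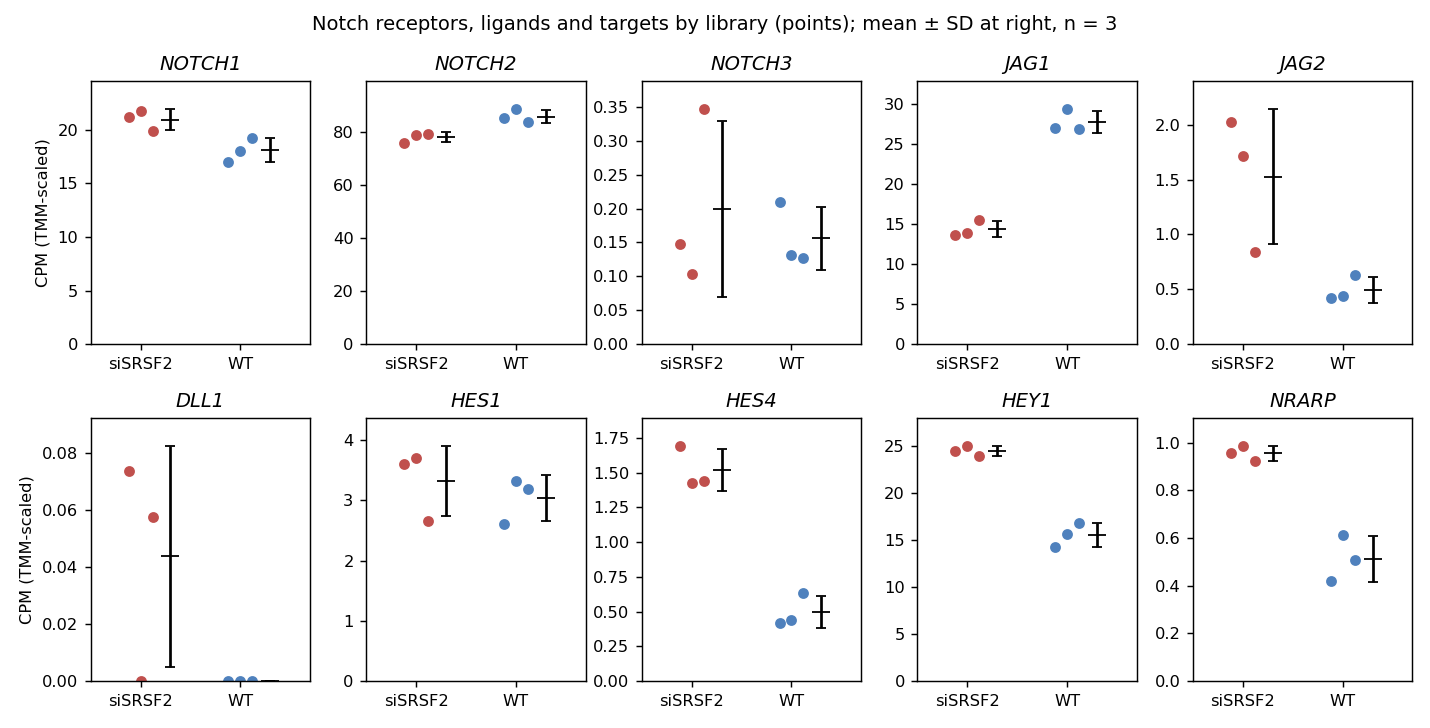
CPM of each of the 10 genes (vertical axes, each from 0) in the 3 siSRSF2 libraries (red) and the 3 WT libraries (blue), with the mean and SD to the right of each group. JAG1 is lower in all 3 siSRSF2 libraries, HES4, HEY1 and NRARP are higher in all 3, and the groups overlap in NOTCH3, DLL1 and HES1.

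Compared per length as RPKM (CPM per kilobase of exon), NOTCH2 and HEY1 had the highest levels of the 10 genes in WT cells, at 5.11 ± 0.150 and 4.82 ± 0.398 RPKM (SD, n = 3), and their ranges overlapped. JAG1 (3.25 RPKM), NOTCH1 (1.83), HES1 (1.47), HES4 (0.444), NRARP (0.290), JAG2 (0.0776) and NOTCH3 (0.0166) followed in WT without overlap between neighbours, and DLL1 was at 0. In siSRSF2 cells HEY1 came first, at 7.57 ± 0.172 RPKM, above NOTCH2 at 4.65 ± 0.106 RPKM, and the ranges did not overlap. JAG1 (1.69 RPKM), HES1 (1.61) and HES4 (1.36) came next to each other in siSRSF2 cells, and the ranges of JAG1 and HES1 and those of HES1 and HES4 overlapped.

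The tested receptors changed little. NOTCH2 (chromosome 1, 119911553 to 120069626, minus strand, GRCh38, 37 merged exons) supplied most receptor RNA in both groups. It had 76.0, 79.0 and 79.2 CPM in siSRSF2 libraries, against 85.1, 88.6 and 83.7 CPM in WT libraries. Each siSRSF2 library was lower than any WT library, by a small margin, and NOTCH2 fell by 0.14 on the log2 scale (SE 0.048, edgeR adjusted p = 0.0161). The fall ended as a call with libraries scaled by their totals alone (log2 fold change -0.01, edgeR adjusted p = 0.928), which shifted the median of all genes by 0.13. Relative to that median, NOTCH2 lay at -0.16 under either scaling. The call was also lost at a mean CPM of at least 1 (edgeR adjusted p = 0.114), without siSRSF2 replicate 1 (0.0726) and without WT replicate 2 (0.0849). NOTCH2NL, a partial copy of NOTCH2 whose reads may not be separable from those of NOTCH2, had 24.5 ± 2.36 CPM in siSRSF2 cells and 17.9 ± 2.22 CPM in WT cells, and rose (log2 fold change 0.45, SE 0.086, edgeR adjusted p = 8.69e-05).

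NOTCH1 (chromosome 9, 136494444 to 136545862, minus strand, 34 merged exons) encodes a receptor known for its activating mutations in T-cell leukaemia. It had 21.2, 21.7 and 19.9 CPM in siSRSF2 libraries, against 16.9, 18.0 and 19.2 CPM in WT libraries. The groups did not overlap, although siSRSF2 replicate 3 and WT replicate 3 were close. NOTCH1 rose by 0.21 on the log2 scale (SE 0.073, edgeR adjusted p = 0.0146). With offsets for GC content and exon length the sign turned (-0.051, edgeR adjusted p = 0.564), and the longest NOTCH1 transcript has a GC content of 62.9%. Without siSRSF2 replicate 2, WT replicate 1 or WT replicate 2, NOTCH1 no longer passed (edgeR adjusted p = 0.0671, 0.104 and 0.0508), nor did it without a filter on low counts (0.184). Neither NOTCH1 nor NOTCH2 passed a test against a change of 1.2-fold (edgeR adjusted p = 0.646 for NOTCH1 and close to 1 for NOTCH2), which 44.4% of all genes tested did.

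NOTCH3 (chromosome 19, 15159038 to 15200981, minus strand) had counts of 4, 4 and 12 in siSRSF2 libraries, against 10, 6 and 6 in WT libraries. The groups overlapped, and no difference was detectable at this depth (edgeR adjusted p = 0.827 without a filter on low counts). The 3 receptors together had 6.78 ± 0.118 RPKM in siSRSF2 cells and 6.95 ± 0.156 RPKM in WT cells (SD, n = 3 each), a ratio of 0.976, so their summed level differed by about the spread between libraries. Within this sum NOTCH1 took 31.2% ± 1.29 in siSRSF2 cells and 26.3% ± 1.49 in WT cells, and NOTCH2 took 68.5% ± 1.09 in siSRSF2 cells and 73.5% ± 1.44 in WT cells. The shares of NOTCH1 and NOTCH2 did not overlap between groups. The exact permutation test, two-sided, gave p = 0.1 for each, the smallest that 3 against 3 libraries allow (0.15 adjusted over 6 shares). NOTCH4 is outside this sum, at 0.134 ± 0.0307 RPKM in siSRSF2 cells and 0.0607 ± 0.0155 RPKM in WT cells. The ratio and shares therefore hold for NOTCH1, NOTCH2 and NOTCH3 only.

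**Figure D2:**
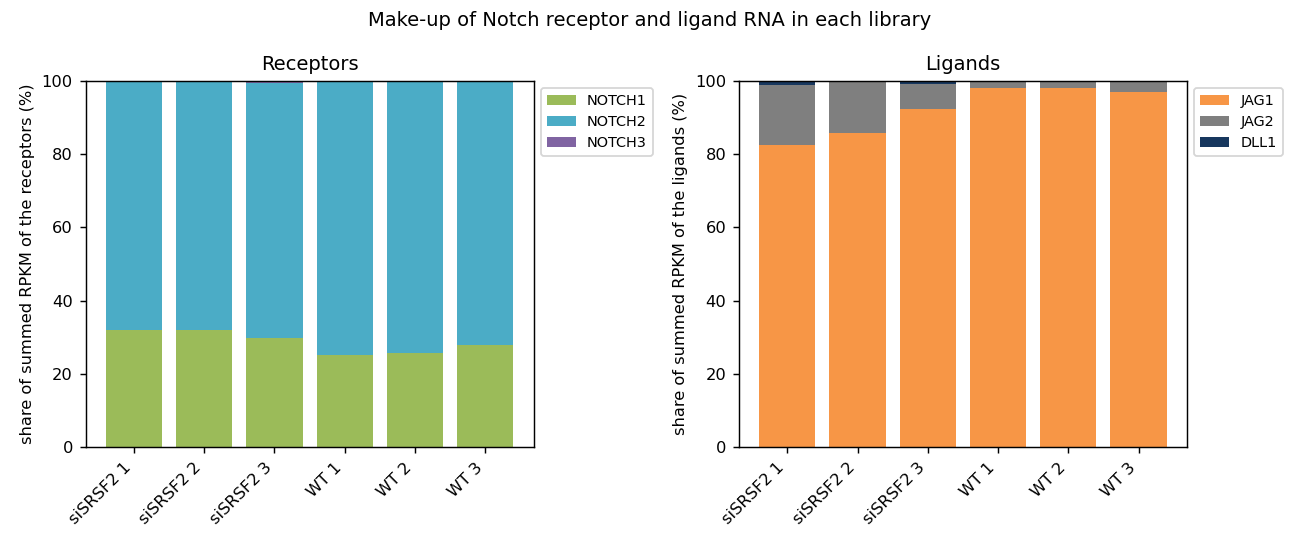
Stacked bars of the share (%) of each gene in the summed RPKM of the 3 receptors (left) and the 3 ligands (right), 1 bar per library with siSRSF2 libraries to the left of WT. NOTCH2 takes 67.7% to 69.7% of receptor RNA in siSRSF2 libraries and 71.8% to 74.5% in WT libraries, while JAG2 takes 6.65% to 16.3% of ligand RNA in siSRSF2 libraries and 1.95% to 3.04% in WT libraries.

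Among the ligands JAG1 fell and JAG2 rose. JAG1 (chromosome 20, 10637684 to 10674107, minus strand, 25 merged exons) encodes Jagged-1, a transmembrane ligand of the Serrate class. It had 13.7, 13.9 and 15.5 CPM in siSRSF2 libraries, against 27.0, 29.4 and 26.9 CPM in WT libraries. Every siSRSF2 library was far below every WT library. JAG1 fell by 0.95 on the log2 scale (SE 0.073, edgeR adjusted p = 1.56e-11), 1.93-fold lower, and 7.13% of all genes tested had a lower value. JAG1 kept its call under all 18 alternative settings run, between -1.02 and -0.82. RP11-103J8.1, a transcript on the opposite strand, shares 79 exon bases with JAG1, which is 0.926% of JAG1 exons.

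JAG2 (chromosome 14, 105140981 to 105168824, minus strand, 25 merged exons) encodes Jagged-2, the second ligand of that class, and was present at a low level. Its counts were 55, 66 and 29 in siSRSF2 libraries, against 20, 20 and 30 in WT libraries. These correspond to 2.02, 1.71 and 0.837 CPM in siSRSF2 libraries, against 0.420, 0.438 and 0.632 CPM in WT libraries. siSRSF2 replicate 3 stood below the other siSRSF2 libraries yet above all WT libraries. JAG2 rose 3.03-fold (log2 fold change 1.60, SE 0.32, edgeR adjusted p = 0.000117), and passed under all 18 alternatives, with values between 1.37 and 1.89. RP11-44N21.4, on the same strand, shares 7.33% of JAG2 exon bases and had counts of 2, 16 and 9 in siSRSF2 libraries, against 7, 2 and 13 in WT libraries.

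DLL1 (chromosome 6, 170282206 to 170306565, minus strand), a ligand of the Delta class, had counts of 2, 0 and 2 in siSRSF2 libraries, against 0 in every WT library. Both groups were at or under 3 counts per library, so no fold change is given. The summed level of the 3 ligands was 1.94 ± 0.0344 RPKM in siSRSF2 cells and 3.33 ± 0.157 RPKM in WT cells (SD, n = 3 each), a ratio of 0.581. JAG1 took 87.0% ± 5.03 of that sum in siSRSF2 cells and 97.7% ± 0.606 in WT cells, and JAG2 took 12.3% ± 5.05 in siSRSF2 cells and 2.34% ± 0.606 in WT cells. The shares of JAG1 and JAG2 did not overlap between groups (exact permutation test, two-sided, p = 0.1, the smallest possible, 0.15 adjusted over 6 shares). JAG1 thus remained the main ligand transcript of the 3 in every library. The sum and shares leave out the ligand genes DLL4 and DLL3. DLL4 had 0.297 ± 0.0360 RPKM in siSRSF2 cells and 0.0985 ± 0.0226 RPKM in WT cells. DLL3 had 0.208 ± 0.0954 RPKM in siSRSF2 cells and 0.250 ± 0.0352 RPKM in WT cells. JAG2 had 0.238 RPKM in siSRSF2 cells, so the ratio and the shares hold for the 3 ligands only.

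The targets were higher or not past the test, and none fell. HEY1 (chromosome 8, 79764010 to 79767863, minus strand, 4 merged exons) encodes a repressor known for its part in heart and vessel development. HEY1 had 24.5, 25.0 and 23.9 CPM in siSRSF2 libraries, against 14.3, 15.6 and 16.8 CPM in WT libraries. All siSRSF2 libraries lay well above all WT libraries. HEY1 rose 1.57-fold (log2 fold change 0.65, SE 0.074, edgeR adjusted p = 2.14e-08), and 22.1% of all genes tested had a higher value. It passed under all 18 alternatives, between 0.58 and 0.78.

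HES4 (chromosome 1, 998962 to 1000172, minus strand, 2 merged exons) encodes a repressor related to HES1. Its counts were 46, 55 and 50 in siSRSF2 libraries, against 20, 20 and 30 in WT libraries. In CPM these were 1.69, 1.43 and 1.44 in siSRSF2 libraries, against 0.420, 0.438 and 0.632 in WT libraries. The groups were far apart relative to the spread within each. HES4 rose 3.04-fold (log2 fold change 1.60, SE 0.28, edgeR adjusted p = 2.18e-05), and 6.54% of all genes tested had a higher value. HES4 also passed under all 18 alternatives, and its lowest value, 1.30, came with offsets for GC content and length. Its longest transcript has a GC content of 73.9%, the highest of the 10 genes.

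NRARP (chromosome 9, 137300482 to 137302251, minus strand, 1 exon) encodes a small ankyrin-repeat protein that binds the Notch intracellular part and limits its activity. It had counts of 26, 38 and 32 in siSRSF2 libraries, against 20, 28 and 24 in WT libraries, which are 0.957, 0.986 and 0.924 CPM in siSRSF2 libraries, against 0.420, 0.613 and 0.506 CPM in WT libraries. The siSRSF2 libraries were close to each other and above all WT libraries. NRARP rose 1.86-fold (log2 fold change 0.90, SE 0.31, edgeR adjusted p = 0.0153). The call was lost without WT replicate 1 (log2 fold change 0.76, edgeR adjusted p = 0.0639), without a filter on low counts (0.82, 0.0513) and with offsets for GC content and length (0.66, 0.0731).

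HES1 (chromosome 3, 194136145 to 194138732, plus strand, 3 merged exons), the most widely used readout of Notch activity, had counts of 98, 143 and 92 in siSRSF2 libraries, against 124, 152 and 151 in WT libraries. Scaled for depth these were 3.61, 3.71 and 2.66 CPM in siSRSF2 libraries, against 2.60, 3.33 and 3.18 CPM in WT libraries. The groups overlapped, with siSRSF2 replicate 3 and WT replicate 1 the lowest of their groups. Its log2 fold change of 0.13 (SE 0.17, edgeR adjusted p = 0.531) had a 95% interval of -0.20 to 0.46 that leaves small changes in either direction possible. The interval of HES4, 1.05 to 2.16, lay wholly above that of HES1.

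**Figure D3:**
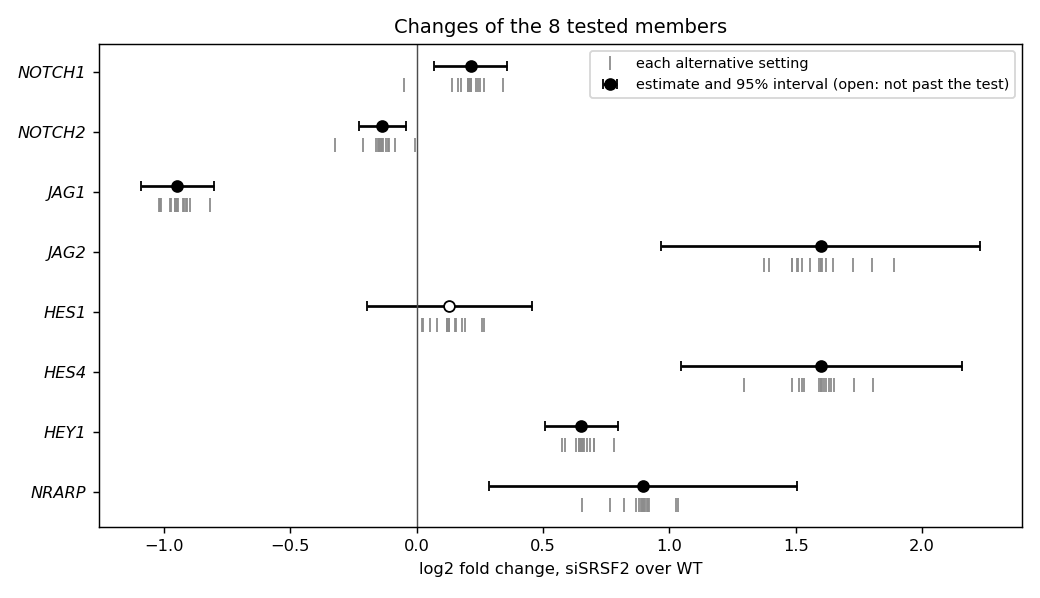
Log2 fold change of siSRSF2 over WT (horizontal axis) for the 8 tested genes, with 95% intervals (black) and the value under each alternative setting (grey ticks below). JAG1 lies near -0.95 and JAG2 and HES4 near 1.60 under the main setting, NOTCH1 and NOTCH2 lie close to 0, and HES1 (open point) spans 0.

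Promoters were compared because HES1, HES4 and NRARP are held to be direct targets of the RBPJ complex and gave different calls here (HES4 and NRARP rose, HES1 did not pass). RefSeq sequences (GRCh38.p14) from 250 bases before to 50 bases after the start site were matched for 8 of the 10 members, all but DLL1 and HEY1. Each was searched on both strands for TGGGAA (the core of the RBPJ site), CACNAG (the N box bound by HES proteins) and CACGTG (an E box). These occur in 24.3%, 38.0% and 7.43% of 27305 promoters of that length. The 3 target promoters are shown 5′ to 3′ on the strand of the gene, with TGGGAA in capitals, for HES1 (chr3:194135898-194136197), HES4 (chr1:1000048-1000347) and NRARP (chr9:137302222-137302521).
HES1: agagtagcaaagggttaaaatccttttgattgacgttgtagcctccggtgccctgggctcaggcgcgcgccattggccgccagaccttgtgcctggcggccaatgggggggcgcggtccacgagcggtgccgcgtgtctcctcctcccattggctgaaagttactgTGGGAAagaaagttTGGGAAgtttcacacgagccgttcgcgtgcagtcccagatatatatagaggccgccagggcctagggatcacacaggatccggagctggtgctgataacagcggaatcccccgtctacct
HES4: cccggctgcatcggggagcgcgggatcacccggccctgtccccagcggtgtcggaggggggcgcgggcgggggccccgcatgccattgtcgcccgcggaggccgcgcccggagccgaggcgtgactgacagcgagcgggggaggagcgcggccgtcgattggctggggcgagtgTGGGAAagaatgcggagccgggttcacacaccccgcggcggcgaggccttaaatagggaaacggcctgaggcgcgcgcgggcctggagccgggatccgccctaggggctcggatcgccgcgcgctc
NRARP: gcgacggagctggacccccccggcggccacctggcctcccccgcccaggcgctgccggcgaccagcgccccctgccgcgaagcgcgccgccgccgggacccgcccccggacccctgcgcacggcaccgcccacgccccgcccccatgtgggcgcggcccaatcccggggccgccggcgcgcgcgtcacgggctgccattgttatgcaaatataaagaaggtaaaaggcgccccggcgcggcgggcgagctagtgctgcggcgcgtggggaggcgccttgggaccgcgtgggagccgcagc
HES1, which did not pass the test, holds the core at -84 and at -70 from the start site. HES4, which rose, holds it once, at -76. NRARP, which rose, has no match in this window, and neither have JAG1, JAG2, NOTCH1, NOTCH2 or NOTCH3. The longest run that the HES1 and HES4 promoters share, a comparison made after the matches were seen, is tgTGGGAAagaa, which starts at -86 in HES1 and at -78 in HES4. It stands in 7 of the 27305 promoters on either strand. CACNAG occurs 4 times in HES1, at -165, -132, -58 and 16, once in NRARP at -2, and not in HES4. It also occurs in NOTCH1 at -1 and 2, in NOTCH2 at -4 and in NOTCH3 at -211, and not in JAG1 or JAG2. CACGTG occurs in none of the 8 promoters. These matches describe the sequence only, and no binding was measured.

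Beyond the 10 members, 61 other genes of the pathway were examined by role, and 55 could be tested. Of these 27 rose, 18 fell and 10 did not pass, which makes 81.8% called in either direction, against 59.1% of all genes tested (30.1% higher and 29% lower). Groups did not overlap for 47 of the 55, against 63.8% of all genes tested. These genes were chosen with earlier results known, and nothing particular to the list is read from these shares. The same shares over all genes apply to the counts by role below, from which nothing particular to a role is read. The median absolute log2 fold change was 0.50 over these 55 genes and 0.48 over all genes tested, and the signed medians were 0.18 and 0.02.

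**Figure D4:**
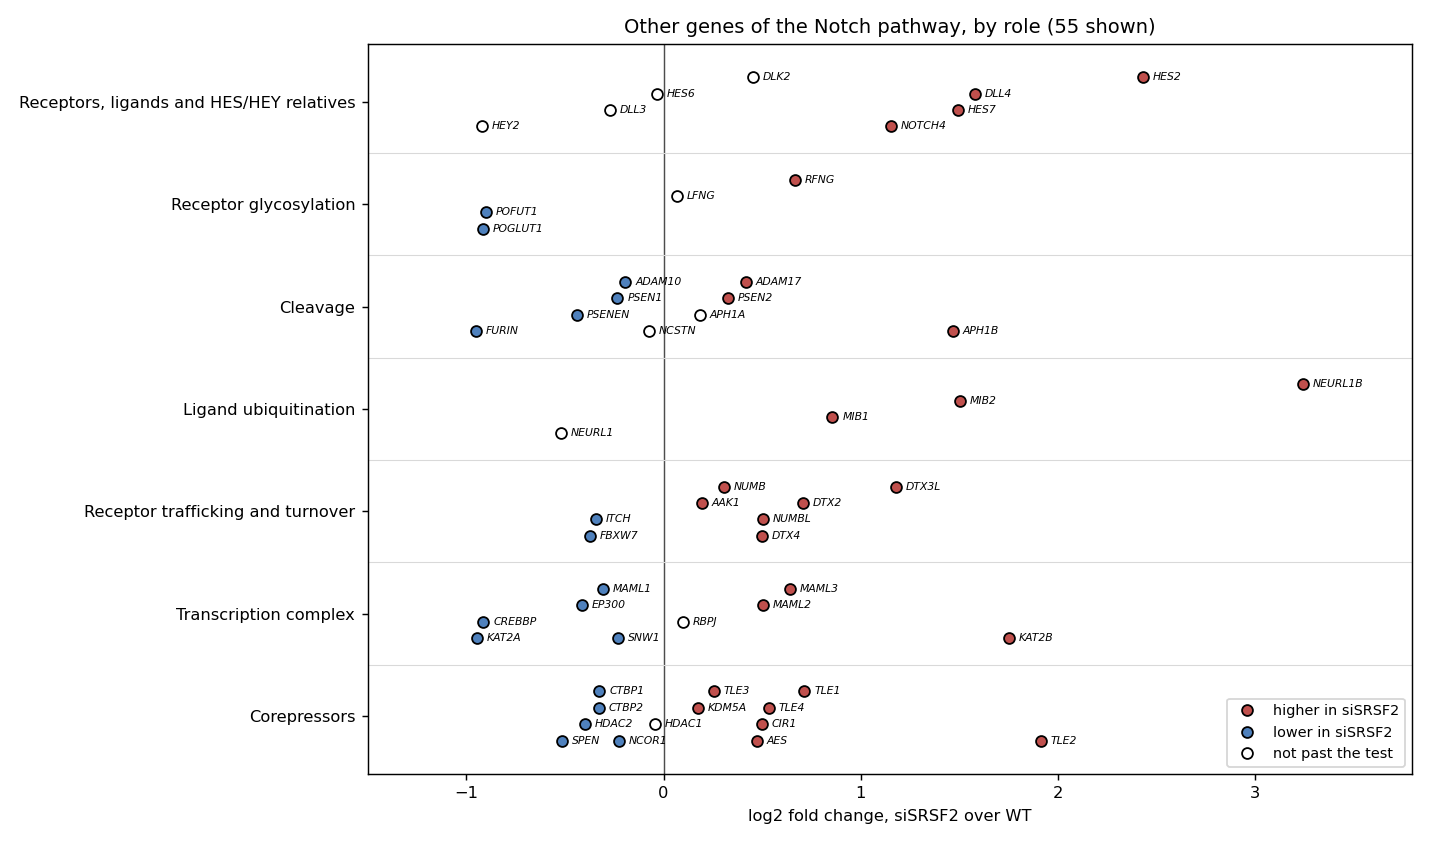
Log2 fold change of siSRSF2 over WT (horizontal axis) of 55 further Notch pathway genes, grouped by role (rows), with genes higher in siSRSF2 in red, lower in blue and not past the test in white. NEURL1B has the highest value (3.25) and FURIN the lowest (-0.95), and each role has genes on both sides of 0.

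Among further receptors, ligands and HES/HEY genes, 4 of 8 tested rose and none passed the test downward. HES2, a HES family repressor, had 6.22, 7.08 and 6.96 CPM in siSRSF2 libraries, against 1.55, 1.23 and 0.969 CPM in WT libraries, and rose 5.41-fold (edgeR adjusted p = 1.29e-12). DLL4, a Delta-class ligand best known from endothelial tip cells, had 1.40, 1.25 and 1.59 CPM in siSRSF2 libraries, against 0.588, 0.438 and 0.379 CPM in WT libraries, and rose 2.99-fold (edgeR adjusted p = 3.91e-05). The endothelial genes PECAM1 (0.206 ± 0.148 CPM in siSRSF2 cells and 0.831 ± 0.0644 CPM in WT cells) and CDH5 (0.955 ± 0.398 CPM in siSRSF2 cells and 2.23 ± 0.141 CPM in WT cells) were lower in siSRSF2 cells, and their part in the DLL4 result was not tested. HES7, named like NOTCH4 after its values were seen, had the highest CPM of this group, at 46.7 ± 5.03 CPM in siSRSF2 cells and 16.6 ± 1.42 CPM in WT cells, and rose 2.81-fold (edgeR adjusted p = 2.55e-13). It encodes an oscillating repressor of somite segmentation. NOTCH4, the fourth receptor, completes the 4 that rose, at 1.30 ± 0.299 CPM in siSRSF2 cells and 0.592 ± 0.151 CPM in WT cells (2.22-fold, edgeR adjusted p = 0.00137). DLK2 (log2 fold change 0.45, edgeR adjusted p = 0.144) and HES6 (-0.03, 0.942) did not pass. DLL3 (-0.27, 0.554) and HEY2 (-0.92, 0.0576), also named after their values were seen, did not pass either. HEY2 groups did not overlap, at 0.221, 0.363 and 0.375 CPM in siSRSF2 libraries, against 0.567, 0.875 and 0.422 CPM in WT libraries. HES5, DLK1 and HEYL were too low to be tested.

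Genes for ligand ubiquitination, the step that lets a ligand-bearing cell pull on the receptor, held the highest rise of the wider list. NEURL1B, which encodes an E3 ligase of the Neuralized family, had 7.40, 7.03 and 7.53 CPM in siSRSF2 libraries, against 0.462, 1.09 and 0.759 CPM in WT libraries. It rose 9.49-fold (log2 fold change 3.25, SE 0.20, edgeR adjusted p = 1.93e-13). MIB2, a ligase of the Mind bomb family, had 8.66 ± 0.426 CPM in siSRSF2 cells and 3.06 ± 0.370 CPM in WT cells and rose 2.83-fold. MIB1, the third of the 3 that rose, named after its values were seen, had 80.9 ± 4.85 CPM in siSRSF2 cells and 44.7 ± 1.08 CPM in WT cells (1.81-fold). NEURL1 did not pass (log2 fold change -0.52, edgeR adjusted p = 0.365).

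Genes that put sugars on the receptor were lower for the initiating enzymes. Of 4 tested, 2 fell and 1 rose. POFUT1, which adds O-fucose to the receptor's EGF repeats, had 90.9 ± 4.86 CPM in siSRSF2 cells and 169.5 ± 7.74 CPM in WT cells (log2 fold change -0.90, edgeR adjusted p = 1.82e-14). POGLUT1, which adds O-glucose, fell too (6.70 ± 0.711 CPM in siSRSF2 cells and 12.7 ± 1.29 CPM in WT cells, -0.92). The Fringe gene RFNG rose 1.59-fold (edgeR adjusted p = 0.00749), but shares 21.6% of its exon bases with GPS1 on the opposite strand. Its call was lost with offsets for GC content and length (log2 fold change 0.46, edgeR adjusted p = 0.0582), without siSRSF2 replicate 2 (0.47, 0.0889) and without WT replicate 3 (0.53, 0.0536). LFNG, another Fringe, did not pass (log2 fold change 0.07, edgeR adjusted p = 0.836).

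Of 9 genes for receptor cleavage, 3 rose and 4 fell. FURIN, the convertase of the first cut, had 20.9 ± 0.146 CPM in siSRSF2 cells and 40.4 ± 2.05 CPM in WT cells (log2 fold change -0.95, edgeR adjusted p = 5.64e-13). ADAM17, a protease of the second cut, rose 1.34-fold, to 92.9 ± 2.12 CPM in siSRSF2 cells, against 69.4 ± 1.40 CPM in WT cells, and shares 24.1% of its exon bases with IAH1 on the opposite strand. Among gamma-secretase subunits, which make the last cut, APH1B rose 2.77-fold (edgeR adjusted p = 7.98e-08) and PSENEN, whose exons overlap several other genes, fell (-0.44, edgeR adjusted p = 0.00432), while APH1A (0.18, 0.0635) and NCSTN (-0.07, 0.450) did not pass. APH1A did pass with libraries scaled by their totals alone (0.31, edgeR adjusted p = 0.00284), at a mean CPM of at least 1 (0.23, 0.0178), without WT replicate 2 (0.25, 0.0274) and with counts halved (0.21, 0.0334). PSENEN did not pass the test against 1.2-fold (edgeR adjusted p = 0.062).

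All 8 tested genes of receptor trafficking and turnover passed the test, 6 upward and 2 downward, where 59.1% of all genes tested did. The ubiquitin ligase gene DTX3L rose 2.26-fold (13.0 ± 0.858 CPM in siSRSF2 cells and 5.72 ± 0.452 CPM in WT cells), and DTX2, of the same Deltex family, rose 1.63-fold. FBXW7, which marks the active intracellular receptor for destruction, fell (78.9 ± 2.52 CPM in siSRSF2 cells and 102 ± 5.62 CPM in WT cells, log2 fold change -0.38, edgeR adjusted p = 3.33e-07), as did ITCH (-0.34), another ligase that targets the receptor, which shares 33.9% of its exon bases with AL109923.1 on the same strand.

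The transcription complex had 3 genes higher and 5 lower of 9. RBPJ, the DNA-binding core, did not pass, at 40.5, 39.4 and 39.1 CPM in siSRSF2 libraries, against 35.5, 38.0 and 37.7 CPM in WT libraries (log2 fold change 0.10, edgeR adjusted p = 0.144). With libraries scaled by their totals alone it did (0.23, edgeR adjusted p = 0.00148), as at a mean CPM of at least 1 (0.15, 0.0208). The acetyltransferase coactivators split, since KAT2B rose 3.37-fold (14.3 ± 0.971 CPM in siSRSF2 cells and 4.25 ± 0.414 CPM in WT cells) whereas KAT2A (19.1, 21.9 and 19.2 CPM in siSRSF2 libraries, against 37.4, 39.1 and 39.6 CPM in WT libraries, -0.94) and CREBBP (102 ± 1.16 CPM in siSRSF2 cells and 193 ± 1.94 CPM in WT cells, -0.91) fell. MAML3, a Mastermind coactivator, rose 1.56-fold.

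Corepressors, which act with RBPJ in the absence of signal or with HES proteins, had 7 genes higher and 5 lower of 13. TLE2 rose 3.77-fold (14.2 ± 1.23 CPM in siSRSF2 cells and 3.76 ± 0.556 CPM in WT cells) and TLE1 1.64-fold, both of the Groucho family that HES proteins recruit. SPEN, an RBPJ partner, fell (328 ± 8.94 CPM in siSRSF2 cells and 468 ± 5.56 CPM in WT cells, log2 fold change -0.51), and HDAC2 fell as well (-0.40). HDAC1 (-0.04, edgeR adjusted p = 0.423) did not pass.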

How the data were processed

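Per the labels' protocols, TRI Reagent and a SMARTER mRNA kit were used. The deposited values are whole-number read counts, 1 entry per gene. The tools named in the submitters' processing notes are HISAT2 2.0.5 and featureCounts 1.5.0-p3, and the build named there is mm10, a mouse build. The table holds human names and positions, and of 35957 names present once in GENCODE 29, a GRCh38 annotation, 93.4% had identical positions. The sources used here give neither the strand setting nor the treatment of reads with several matches. Low counts were mostly even: of values from 1 to 10, 78.3% to 79.2% were even in siSRSF2 libraries and 81.3% to 81.7% in WT libraries. The sources do not say whether both mates of a pair were counted.

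Groups and replicate numbers came from sample titles. Genes were filtered with filterByExpr (minimum count 10, 23689 genes kept, 99.9% of counts), scaled by TMM and tested with the robust quasi-likelihood F test of edgeR 4.0.16 in R 4.3.3, with no covariate and p-values adjusted by Benjamini-Hochberg over all genes tested. The pipeline was also run on simulated counts with planted changes and the same spread for every gene, unlike the real data. That run checks the code and not the calls reported here. SEs come from the fold change and its F statistic. CPM and RPKM were computed here, RPKM with the table's exon lengths. Alternatives used DESeq2 1.42.0, limma 3.58.1 (voom) and other scalings, filters and sample sets. Every pair of replicates differed by more than sampling noise, with each count taken as independent.

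The members and lists were chosen with earlier results of these data known. All members are named. Of the wider list, each role names the 2 largest rises and falls past the test with at least 1 CPM, and up to 2 genes not past it with the highest CPM. Marker genes are given as levels, with no test. A gene of the wider list and a marker gene are not reported here, and list counts and sums leave them out.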

Additional observations from a re-analysis of the deposited data

How the results depend on the processing

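JAG1, JAG2, HES4 and HEY1 kept direction and call under all 18 alternatives, and HES1 stayed short of the test in all 18. The 5 members higher became 3 without a filter on low counts and with offsets for GC content and length. Over all genes, 7129 higher became 6490 and 6793 in these settings. The 2 lower became 1 with scaling by library totals, with a mean CPM of at least 1 and in the test against 1.2-fold. In that last test the 18 wider genes lower became 10. Over all genes, 6862 lower became 5492, 5980 and 4941 in these settings. With one library left out, 3 to 5 members were higher and 1 to 2 lower. The lowest counts came without WT replicate 1 (3 higher), and without siSRSF2 replicate 1 or WT replicate 2 (1 lower each, NOTCH2 having lost its call). NRARP gave no value at a mean CPM of at least 1. The sample titles do not say whether same-numbered libraries belong together. Correlations of same-numbered libraries were 0.013, -0.047 and -0.046, and those of other pairs ranged from -0.022 to 0.066. With 3 libraries per group these cannot settle it. The replicate block gave 5 members higher and 2 lower, and 27 wider genes higher and 18 lower. In all, 6927 genes were higher and 6770 lower with it.

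Signs turned for NOTCH1 (-0.051) with GC and length offsets, and for genes near 0. These were HDAC1 with library totals (0.085) and a mean CPM of at least 1 (0.0067), NCSTN with library totals (0.055), HES6 with library totals (0.098), and LFNG with no filter (-0.0058) and the offsets (-0.086). With one library left out, HES6 ranged from -0.078 to 0.030 and LFNG from -0.065 to 0.18. The cause was not tested. Halving all counts, chosen after low counts were seen to be mostly even, left 5 members higher and 2 lower. At this depth NOTCH3 and DLL1 could not be tested.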

Other observations

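JAG2 and HES4, which lie on chromosomes 14 and 1, had the same counts in all WT libraries (20, 20 and 30) but not in siSRSF2 libraries, where JAG2 had 55, 66 and 29 and HES4 had 46, 55 and 50. Their log2 fold changes, 1.60 each, therefore rest on the same WT counts, while the SD in siSRSF2 libraries was 0.616 CPM for JAG2 and 0.149 CPM for HES4.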
